A study of Mus musculus with 37 samples.

Results

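The microRNA family of miR-148 and miR-152 was followed in small RNA libraries from total blood of mice between 12 and 16.5 months of age. The 4 members described here were taken from the count table by name, among 1915 mature microRNAs in the table. They are mmu-miR-148a-3p, mmu-miR-148b-3p and mmu-miR-152-3p, which carry the family's seed, and mmu-miR-148a-5p, the opposite arm of the miR-148a hairpin. miR-148b-5p, the opposite arm of the miR-148b hairpin, is no member and is given beside its partner because the comparison of the arms turns on it.

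The series holds 37 libraries. There are 9 from 12 months, 12 from 13.5 months, 5 from 15 months and 11 from 16.5 months. All come from C57BL/6 mice that carry no engineered allele in the labels. Per the study's methods the mice were single-housed males from a commercial breeder, bled from the retro-orbital sinus, first before and later after training in the Morris water maze, a test of spatial memory. Every age after 12 months therefore differs from it in training as well as in age, and the 2 cannot be told apart. The study describes a longitudinal design, so libraries of different ages can come from the same mouse. The labels number the libraries within an age and do not say which come from the same mouse. The main tests therefore treated all 37 libraries as independent. Their p-values measure the spread between these libraries and do not account for repeated samples of a mouse.

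A microRNA is cut from a hairpin precursor, and usually one of its arms is loaded into an Argonaute protein while the other arm is degraded. The loaded strand finds its messenger RNA targets mainly through the seed, bases 2 to 8 from its 5′ end, so family members that share a seed share most predicted targets. DNMT1, the maintenance DNA methyltransferase, is a well-known target of this family. miR-148a-3p is known as an abundant microRNA of liver and of B lymphocytes.

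The mature sequences are printed 5′ to 3′ from RefSeq (GRCm38.p6), with the seed in capitals, to show that the 3 leading arms share one seed and differ only behind it. All 4 members were matched by name.
miR-148a-3p: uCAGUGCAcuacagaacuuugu
miR-148b-3p: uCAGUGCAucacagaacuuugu
miR-152-3p: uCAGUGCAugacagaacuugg
miR-148a-5p: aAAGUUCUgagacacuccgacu
miR-148b-5p: gAAGUUCUguuauacacucaggcu

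The seed CAGUGCA stood at bases 2 to 8 of 3 of the 1679 mature mouse microRNAs with a RefSeq sequence, the 3 above. Counted from base 1 at the 5′ end and without gaps, miR-148b-3p differs from miR-148a-3p by 2 substitutions, C9U and U10C. miR-152-3p differs from miR-148a-3p by C9U, U10G and U20G over the 21 bases compared. The longest run shared by miR-148a-3p and miR-148b-3p is 12 bases, or 15 bases when the 2 bases before and 5 bases after each arm are included. The study discarded reads under 18 nt and allowed no mismatch, so a read long enough to be kept could not match both. miR-148a-5p and miR-148b-5p share a seed of their own, AAGUUCU, and miR-152-5p does not carry it.

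The study also used a designed inhibitor against miR-148a-3p, shown here because it bears on how far the members can be told apart by base pairing. It is printed 5′ to 3′, with the bases that pair with the seed in capitals.
miR-148a-3p inhibitor: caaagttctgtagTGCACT
The inhibitor is complementary to bases 3 to 21 of miR-148a-3p in all 19 positions. It is complementary to 17 of the 19 aligned positions of miR-148b-3p and to 16 of those of miR-152-3p. Only pairs of A with U or T and of G with C were counted, and G opposite U was not. No library of this series was treated with it.

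The members come from 3 chromosomes. Mature miR-148a-3p lies at chr6:51269829-51269850 and miR-148a-5p at chr6:51269867-51269888, both on the minus strand of the Mir148a hairpin, which overlaps no other annotated gene. The nearest protein-coding gene, Nfe2l3, starts 162760 bp away. miR-148b-3p lies at chr15:103285185-103285206 on the plus strand, in an intron of Copz1. miR-152-3p lies at chr11:96850439-96850459 on the plus strand, in an intron of Copz2. Copz1 and Copz2 encode the zeta subunits of the COPI vesicle coat and are transcribed on the same strand as their microRNAs. Small RNA libraries do not measure the host transcripts.

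Counts on mature microRNAs summed to 2619533 to 20268095 per library. The rows of miR-486a and miR-486b held the same values and both are in these sums, so the number of reads was lower. miR-486, which is abundant in red blood cells, took most of these counts. Only 140292 to 1131713 counts per library came from rows other than miR-486a-5p and miR-486b-5p. With miR-486b-5p left out, the 6 erythroid markers together took 88.0% to 97.2% of reads. Levels below are reads per 1000000 of the summed counts (CPM), with miR-486a and miR-486b both included. They were scaled between libraries by the trimmed mean of M-values (TMM). TMM factors ran from 0.309 to 1.97, and 13.5 months replicate 1 had the lowest, with the fewest reads of both miR-148a-3p (39) and miR-148b-3p (106). In blood, fewer cells of a type and less RNA per cell cannot be told apart.

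miR-148b-3p was the most abundant member. It had 51208 reads in all, was read in every library and ranked 36 of 1915 microRNAs by mean level, next to miR-21a-5p and let-7d-5p. miR-148a-3p had 29791 reads and ranked 48, between miR-26b-5p and miR-93-5p. miR-148b-3p had more reads than miR-148a-3p in 35 of 37 libraries, and both exceptions were 13.5-month libraries. Of the reads on the shared seed, miR-148b-3p took a median of 64.1%, miR-148a-3p took 35.8% and miR-152-3p took 0.0982%. Summed over the 3 arms, the median level was 221 CPM at 12 months and 206 CPM at 13.5 months, then 284 CPM and, at 16.5 months, 160 CPM, with overlapping ranges.

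miR-152-3p was close to the limit of detection. It had 74 reads over all libraries, at most 7 in one library and none in 8 libraries. In a library, 3 reads, taken here as the floor, correspond to 0.142 to 2.28 CPM. The mean level at each age was between 0.155 and 0.303 CPM. Whether its level differed between ages was not detectable at this depth (edgeR age F-test, adjusted p = 0.49). At 16.5 against 12 months miR-152-3p differed by −0.74 ± 0.50 on the log2 scale (SE, adjusted p = 0.381). Its 5p arm had 26 reads in all.

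miR-148a-5p was read far less than its partner, with 535 reads in all, 0 to 46 per library and a median of 11. miR-148b-5p had 2235 reads, 0 to 202 per library, and exceeded miR-148a-5p in 36 of 37 libraries. Counting error is therefore part of the spread of both 5p arms. Counts also include copies made by PCR, since the libraries carried no molecular identifiers.

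**Figure D1:**
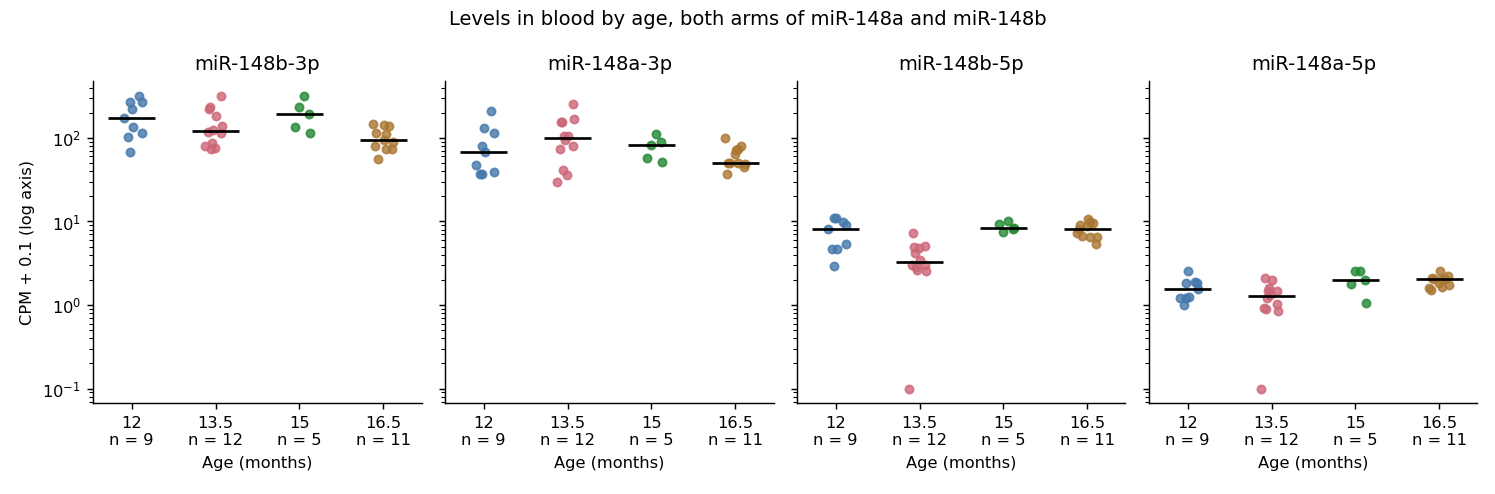
CPM plus 0.1 (log axis) of the 3p and 5p arms of miR-148b and miR-148a in each library, by age in months; points are libraries and bars are medians. The 3p arms spread widely within an age, while miR-148b-5p sits lower at 13.5 months, with a median of 3.15 CPM, than at the other ages.

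miR-148b-3p, the leading member, was lowest at 16.5 months. At 12 months its level ran from 66.9 to 313 CPM with a median of 174 CPM. At 13.5 months it ran from 74.3 to 314 CPM with a median of 120 CPM. At 15 months the 5 libraries stood at 135, 235, 116, 194 and 320 CPM. At 16.5 months it ran from 55.5 to 146 CPM with a median of 95.4 CPM. The highest 16.5-month library was below the median of the 12-month and of the 15-month libraries, but the ranges of all 4 ages overlapped.

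Across the 4 ages miR-148b-3p passed the edgeR F-test with an adjusted p of 0.0202. This test called 51 of the 87 microRNAs with over 100 reads in at least 50% of libraries (58.6%), so a call was not unusual. Between single ages, only 16.5 against 12 months passed: miR-148b-3p fell by 0.86 on the log2 scale (SE 0.27, adjusted p = 0.0175), where 13.8% of the tested microRNAs fell. The differences of 16.5 against 15 months (−0.97 ± 0.32, SE, adjusted p = 0.0922) and of 16.5 against 13.5 months (−0.53 ± 0.26, SE, adjusted p = 0.0891) did not pass, and without 15 months replicate 5 the first of these was −0.46. The values were −0.33 ± 0.27 (SE, adjusted p = 0.327) at 13.5 against 12 months and 0.45 ± 0.32 (SE, adjusted p = 0.29) at 15 against 13.5 months. The F-test call was lost when any 1 of 15 of the 37 libraries was left out, with an adjusted p of up to 0.175, and under total-count scaling (adjusted p = 0.127). The call of 16.5 against 12 months was lost without any 1 of 16 libraries (adjusted p up to 0.127), with total counts (0.0853), the highest TMM reference library (0.0985), no filter (0.0821) and limma on the deposited values (0.0676). With 1 and 2 RUVs factors the fall passed but was smaller, at −0.55 (adjusted p = 0.00114) and −0.48 (adjusted p = 0.00124).

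miR-148a-3p, the member used in the study's marker signature, had its widest range at 13.5 months. At 12 months it ran from 36.9 to 212 CPM with a median of 67.9 CPM. At 13.5 months it ran from 29.6 to 254 CPM with a median of 99.2 CPM. At 15 months the 5 libraries stood at 57.8, 82.3, 51.9, 90.3 and 111 CPM. At 16.5 months it ran from 36.7 to 99.96 CPM with a median of 50.1 CPM. The 13.5-month libraries thus included both the highest and the lowest level of the whole series, an 8.58-fold range, and the 4 ages overlapped.

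The age F-test of miR-148a-3p did not pass (edgeR, adjusted p = 0.119). miR-148a-3p fell by 0.82 on the log2 scale between 13.5 and 16.5 months (SE 0.31, adjusted p = 0.0255), where 27.6% of the tested microRNAs fell. The difference of 13.5 against 12 months was 0.34 ± 0.32 (SE, adjusted p = 0.39), where 43.7% of microRNAs were called in either direction. The differences of 15 against 13.5 months (−0.45 ± 0.40, SE, adjusted p = 0.393), 16.5 against 12 months (−0.48 ± 0.33, SE, adjusted p = 0.306) and 16.5 against 15 months (−0.37 ± 0.39, SE, adjusted p = 0.797) did not pass. With 1 factor of unwanted variation removed by RUVs, the study's method, re-implemented here, the same F-test passed with an adjusted p of 9.26e-05, and with 2 factors with one of 0.0359. The log2 fold change of 13.5 against 12 months was then 0.85 with 1 factor (adjusted p = 0.000552) and 0.43 with 2 factors (adjusted p = 0.019). The fall between 13.5 and 16.5 months passed in 36 of 37 fits that left out 1 library, and without 16.5 months replicate 6 it was −0.79 with an adjusted p of 0.0506. It did not pass under total-count scaling (adjusted p = 0.0641) or with limma on the deposited normalized values (adjusted p = 0.1). Nor did it pass in edgeR with the replicate number as a block (adjusted p = 0.0969). With 2 RUVs factors the fall was −0.35 (adjusted p = 0.0436).

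The spread between libraries of an age was wide for both members. edgeR's biological coefficient of variation was 0.501 for miR-148a-3p and 0.428 for miR-148b-3p, ranks 11 and 26 of the 87 microRNAs tested, whose median was 0.32. In order of age, the SD of miR-148a-3p was 69.1%, 60.7%, 30.8% and 30.7% of the mean, and that of miR-148b-3p was 46.5%, 51.5%, 41.1% and 30.7%.

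**Figure D2:**
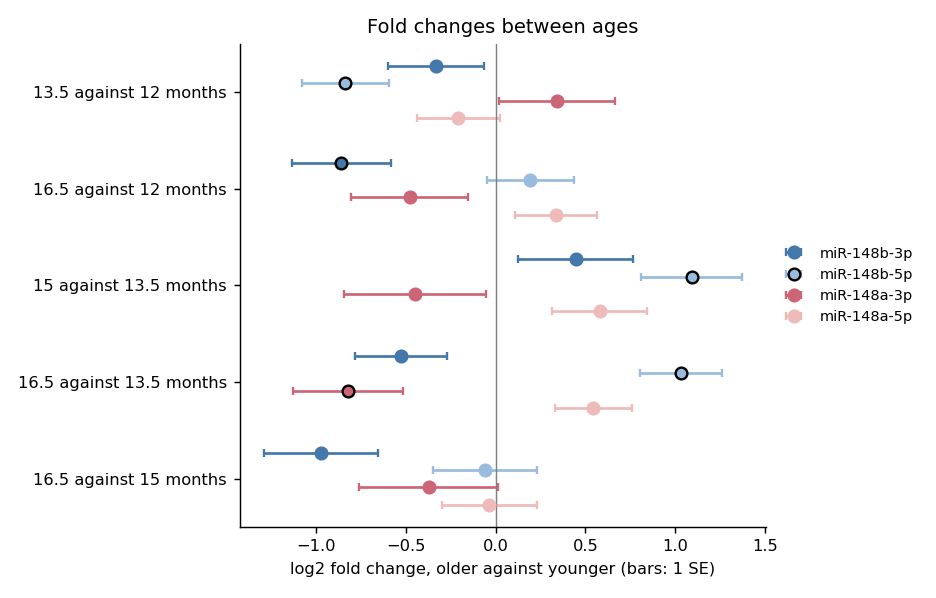
Log2 fold changes of the older against the younger age (bars, 1 SE) from edgeR for both arms of miR-148b and miR-148a; points with a black edge passed an adjusted p of 0.05. The 3p arms sit below 0 at 16.5 against 13.5 months while both 5p arms sit above it.

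The opposite arm of the leading member was lowest at 13.5 months. miR-148b-5p ran from 2.82 to 10.9 CPM at 12 months (median 8.14 CPM) and from 0 to 7.18 CPM at 13.5 months (median 3.15 CPM). At 15 months the 5 libraries stood at 9.15, 7.44, 8.36, 8.08 and 9.98 CPM. At 16.5 months it ran from 5.27 to 10.7 CPM (median 8.10 CPM). Every 15-month library lay above every 13.5-month library, and the other ages overlapped. How many other microRNAs showed no overlap between these ages was not counted.

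miR-148b-5p passed the age F-test with an adjusted p of 0.00211 over the 323 microRNAs that had more than 1 read in 50% of libraries or more, of which 32.2% were called. It fell by 0.84 on the log2 scale between 12 and 13.5 months (SE 0.24, adjusted p = 0.0118), where 11.8% fell. It rose by 1.09 between 13.5 and 15 months (SE 0.28, adjusted p = 0.00752), where 3.41% rose, and stood 1.03 higher at 16.5 than at 13.5 months (SE 0.23, adjusted p = 0.000635), where 11.8% rose. Its level at 16.5 months did not differ past the threshold from that at 12 months (0.19 ± 0.24, SE, adjusted p = 0.702), except with 2 RUVs factors (0.47, adjusted p = 0.0462). All calls of miR-148b-5p held in each of 37 fits that left out 1 library, and all were lost under total-count scaling, where the F-test gave an adjusted p of 0.0887.

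The median of miR-148a-5p was 1.46 CPM at 12 months and 1.17 CPM at 13.5 months. It was 1.89 CPM at 15 and 1.92 CPM at 16.5 months of age. Its 13.5-month values ran from 0 to 2.03 CPM and its 16.5-month values from 1.43 to 2.43 CPM. It did not pass the age F-test (adjusted p = 0.122), and its difference of 16.5 against 13.5 months was 0.54 ± 0.21 (SE, adjusted p = 0.055).

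Ratios between 2 microRNAs of the same library do not depend on how libraries are scaled, so they compare the members more directly. They were taken on the log2 scale after adding 0.5 reads to each count. How efficiently each sequence is ligated and amplified was not tested, so the size of a ratio is a description and its difference between ages was tested. Over 5 ratios and 6 pairs of ages 30 permutation tests were made, and p-values were adjusted over all 30.

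The balance of the leading members shifted toward miR-148a-3p at 13.5 and at 16.5 months. How often ratios between microRNAs of different hairpins outside the family shift as much was not tested. The ratio of miR-148a-3p over miR-148b-3p ran from 0.275 to 0.678 at 12 months (median 0.424) and from 0.371 to 1.21 at 13.5 months (median 0.677). At 15 months the 5 libraries had ratios of 0.43, 0.351, 0.45, 0.466 and 0.348. At 16.5 months it ran from 0.442 to 0.894 (median 0.613). The ratio was above the 12-month median in 11 of 12 libraries at 13.5 months and in 11 of 11 at 16.5 months, with overlap between the ages.

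The ratio was 1.60-fold higher at 13.5 than at 12 months (difference in log2 0.67, SE 0.21, two-sided exact permutation test, adjusted p = 0.0238). It was lower at 15 than at 13.5 months by 0.75 on the log2 scale (−0.75 ± 0.17, SE, exact permutation test, adjusted p = 0.0256). It was 1.48-fold higher at 16.5 than at 15 months (0.57 ± 0.13, SE, exact permutation test, adjusted p = 0.0172) and 1.41-fold higher at 16.5 than at 12 months (0.50 ± 0.18, SE, exact permutation test, adjusted p = 0.0357). At 16.5 against 13.5 months the difference was −0.18 ± 0.17 (SE, permutation test, adjusted p = 0.435). The call of 16.5 against 12 months was the weakest, since it was lost when any 1 of 11 of the 20 libraries was left out (adjusted p up to 0.0712) and with a rank test (permutation, adjusted p = 0.0539). That of 15 against 13.5 months was lost without 15 months replicate 2 (−0.69) or replicate 5 (−0.69), each with an adjusted p of 0.0539. None of the 12 tests of ratios with miR-152-3p passed, the smallest adjusted p among them was 0.108, and 1 had an unadjusted p under 0.05.

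**Figure D3:**
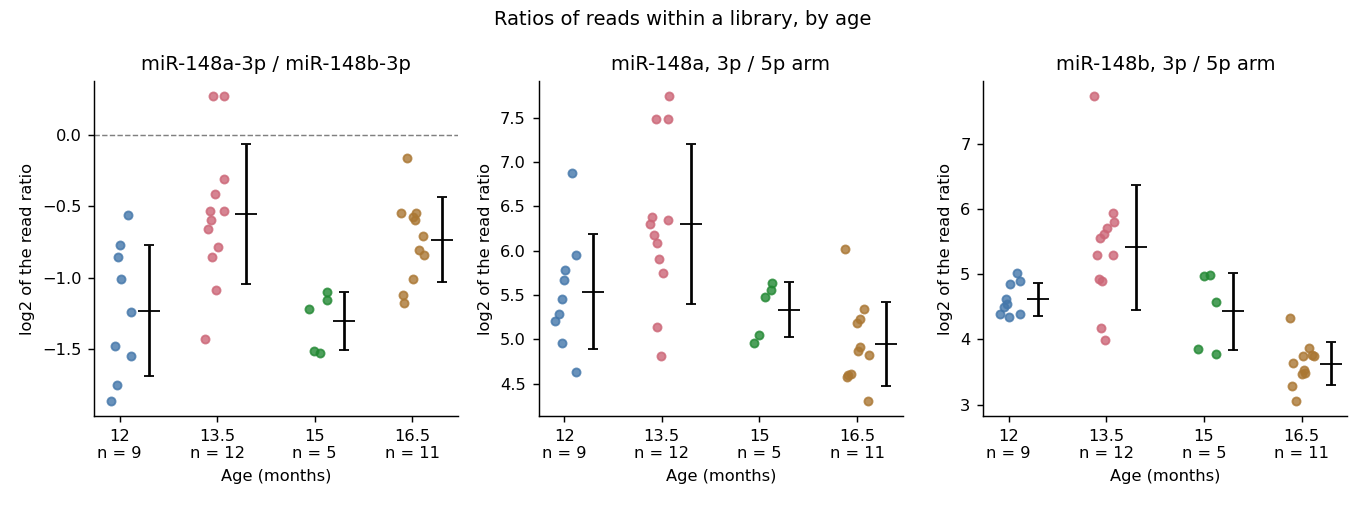
Log2 ratios of reads within each library by age in months, for miR-148a-3p over miR-148b-3p and for the 3p over the 5p arm of miR-148a and of miR-148b; points are libraries, and the black marks are means with SD. In the panel of miR-148b arms, all 11 libraries of 16.5 months lie below all 9 of 12 months.

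The arms of miR-148b changed their balance with age. This ratio was added to the tests after the values had been seen. At 12 months miR-148b-3p had from 20.2 to 32.3 reads for each read of miR-148b-5p, with a median of 23.2. At 13.5 months the ratio ran from 15.9 to 213, with a median of 42.9, and the highest value came from replicate 1, where the 5p arm had no read. At 15 months the 5 libraries stood at 14.4, 31.4, 13.7, 23.9 and 31.9. At 16.5 months it ran from 8.30 to 20.2, with a median of 12.4.

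To place this change among other microRNAs, the ratio of 3p over 5p arm was tested in each of the 65 hairpins whose arms both passed that lower filter. At 16.5 against 12 months the miR-148b ratio was lower by 0.99 on the log2 scale (−0.99 ± 0.13, SE, two-sided exact permutation test, adjusted p = 0.000387 over the 65 hairpins). All 11 older libraries were below all 9 younger ones, a lack of overlap seen in 3.08% of the 65 hairpins, and 4.62% were called lower. By its p-value miR-148b ranked 2 of 65 in this comparison. At 16.5 against 13.5 months the ratio was lower by 1.78 (−1.78 ± 0.29, SE, permutation test, adjusted p = 0.00013), the smallest p that the resamples could give, shared with 4 other hairpins, where 12.3% were called lower. The median difference over the 65 hairpins was −0.04 in the first comparison and 0.08 in the second. At 16.5 against 15 months the difference was −0.81 ± 0.28 (SE), which passed over the 30 ratio tests (exact permutation test, adjusted p = 0.0179) and not over the 65 hairpins (adjusted p = 0.0645), of which 1.54% were called. At 13.5 against 12 months it was 0.80 ± 0.29 (SE, exact permutation test, adjusted p = 0.0539 over the ratio tests and 0.0955 over the hairpins), and at 15 against 13.5 months −0.98 ± 0.38 (SE, exact permutation test, adjusted p = 0.112 and 0.217).

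The arms of miR-148a moved less clearly. At 12 months miR-148a-3p had from 24.8 to 117 reads for each read of miR-148a-5p (median 44.0), at 13.5 months from 28.1 to 214 (median 75.7), and at 16.5 months from 19.8 to 64.8 (median 29.1). At 15 months the 5 libraries stood at 31, 33, 49.8, 47.2 and 44.6. The ratio was lower at 16.5 than at 13.5 months by 1.35 on the log2 scale (−1.35 ± 0.30, SE, permutation test, adjusted p = 0.003 over the ratio tests and 0.00195 over the 65 hairpins). These differences did not pass: −0.97 ± 0.30 (SE) at 15 against 13.5 months (exact permutation test, adjusted p = 0.093), 0.76 ± 0.34 (SE) at 13.5 against 12 months (exact permutation test, adjusted p = 0.108), −0.59 ± 0.26 (SE) at 16.5 against 12 months (exact permutation test, adjusted p = 0.0848) and −0.38 ± 0.20 (SE) at 16.5 against 15 months (exact permutation test, adjusted p = 0.231).

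Both hairpins are printed 5′ to 3′ from RefSeq with the 5p arm and then the 3p arm in capitals, to show which strands the arm ratios compare.
Mir148b hairpin: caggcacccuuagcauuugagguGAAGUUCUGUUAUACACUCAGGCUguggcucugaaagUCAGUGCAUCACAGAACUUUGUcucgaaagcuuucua
Mir148a hairpin: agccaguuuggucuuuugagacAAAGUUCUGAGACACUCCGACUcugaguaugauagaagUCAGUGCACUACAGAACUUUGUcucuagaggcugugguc
The Mir148b hairpin spans chr15:103285125-103285221 on the plus strand and the Mir148a hairpin chr6:51269812-51269910 on the minus strand. A change in the ratio of arms of one hairpin is a change in 2 products of one precursor relative to each other.

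Within an age, miR-148a-3p and miR-148b-3p rose and fell together. After the mean of each age was subtracted from log2(CPM + 1), Pearson's r over 37 libraries was 0.85 and Spearman's rho 0.84. Shuffling libraries within ages gave a permutation p of 1e-05 for each, the smallest that the 100000 resamples could give. Without the 2 libraries farthest from the median of miR-148a-3p, r was 0.84. Within the 12-month, 13.5-month and 16.5-month libraries, r was 0.86, 0.87 and 0.78. Both levels share the scaling of their library. Age-centred, each also moved with the TMM factor (rho 0.57 for miR-148a-3p and 0.62 for miR-148b-3p), whose part in the relation was not tested.

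**Figure D4:**
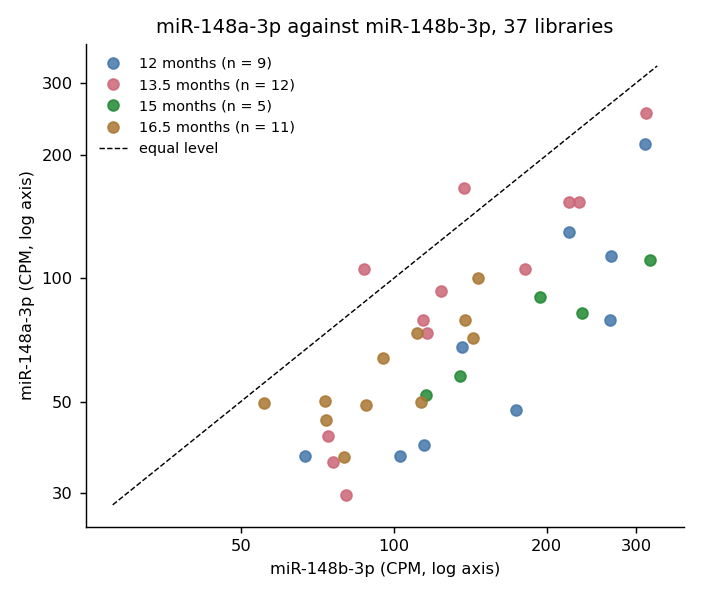
CPM of miR-148a-3p against miR-148b-3p (both on log axes) in the 37 libraries, coloured by age; the dashed line marks equal levels. The 2 points above the line are 13.5-month libraries, and within each age the levels rise together.

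Many other microRNAs varied with the family in the same way. Among the 86 others past the 100-read filter, the age-centred levels most like miR-148a-3p were those of miR-21a-5p (rho 0.92), miR-148b-3p (0.84) and miR-194-5p (0.84). Those most like miR-148b-3p were miR-93-5p (rho 0.92), miR-29a-3p (0.91) and miR-532-5p (0.87). For miR-148a-3p, 29 of the 86 had a rho above 0.5 and 26 had one below −0.5, with miR-125a-5p at −0.86. For miR-148b-3p these counts were 28 and 25, with miR-423-5p at −0.90. These are descriptions over 37 libraries that share the same scaling.

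Relatives whose seed is offset were examined beside the family. miR-130a-3p, miR-130b-3p and miR-301a-3p carry the same 7 bases at bases 1 to 7 instead of 2 to 8, as in this sequence with those bases in capitals.
miR-130b-3p: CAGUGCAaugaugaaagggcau
miR-130b-3p passed the age F-test (adjusted p = 0.00132), with a mean of 51.7 ± 10.6 CPM (SD, n = 12) at 13.5 months against 39.8 ± 7.93 CPM (SD, n = 9) at 12 months. Its mean was 32.0 ± 8.92 CPM (SD, n = 5) at 15 months and 35.9 ± 8.15 CPM (SD, n = 11) at 16.5 months. miR-130a-3p (adjusted p = 0.416) and miR-301a-3p (adjusted p = 0.104 with the 1-read filter) did not pass.

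The microRNA markers of blood cells showed what else moved. miR-150-5p, the defining lymphoid marker, was read in every library and did not pass the age F-test with the 100-read filter (adjusted p = 0.913), the filter behind each p of a single marker here unless another is named. Lymphoid miR-342-3p passed (adjusted p = 0.00381), with mean levels of 13.9, 13.7, 18.2 and 25.4 CPM in order of age. miR-223-3p, the defining myeloid marker, had a mean of 26.8 CPM at 12 months and 13.1 CPM at 13.5 months, followed by 17.6 CPM and then 20.4 CPM (adjusted p = 0.00465). The summed level of both leukocyte markers, the arms of miR-142a, ran from 2358 to 3437 CPM in 12-month, 933 to 3170 CPM in 13.5-month, 1997 to 2911 CPM in 15-month and 2324 to 4130 CPM in 16.5-month libraries. The erythroid marker miR-144-5p had a mean of 5.71 CPM at 13.5 months and of 18.3 to 20.02 CPM at the other ages (adjusted p = 2.15e-05). Erythroid miR-451a had means of 7533, 2770, 5119 and 4542 CPM in order of age (adjusted p = 0.0145, and 0.0548 with the 1-read filter). Those of erythroid miR-16-5p were 5989, 4892, 3741 and 4111 CPM (adjusted p = 0.0103). Erythroid miR-486a-5p did not pass (adjusted p = 0.333), with means of 416656, 516364, 658442 and 521088 CPM in order of age. miR-122-5p, the defining liver marker, was at 0 in 27 libraries. miR-192-5p of the same list passed (adjusted p = 0.00465), with mean levels of 710, 440, 798 and 519 CPM in order of age. Its age-centred levels over the 37 libraries had a rho of 0.83 with miR-148a-3p and 0.82 with miR-148b-3p. In the same order, rho was 0.78 and 0.86 for erythroid miR-451a and 0.66 and 0.80 for myeloid miR-223-3p. Erythroid miR-16-5p had 0.54 and 0.70, while erythroid miR-486a-5p had −0.57 and −0.62 and erythroid miR-92a-3p −0.54 and −0.65. Lymphoid miR-150-5p had a rho of −0.75 and −0.85, and lymphoid miR-342-3p one of −0.24 and −0.31. It was 0.42 and 0.38 for leukocyte miR-142a-5p, and 0.12 and 0.20 for erythroid miR-144-5p. miR-126a-3p, the defining platelet and endothelial marker, was at 0 in 5. Another erythroid marker, miR-92a-3p, was higher at 13.5 months, with a mean of 22452 CPM against 7206 to 9736 CPM at the other ages (adjusted p = 0.000971). Among markers past the 1-read filter, where 32.2% of all microRNAs were called, the age F-test called 4 of 6 erythroid, 1 of 3 lymphoid, 1 of 2 myeloid, 1 of 2 leukocyte and 1 of 2 liver markers, and gave adjusted p-values of 0.123 and 0.151 for the platelet and endothelial markers. The part of these markers in the family's values was not tested.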

How the data were processed

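Small RNA of total blood was prepared with the TruSeq Small RNA kit and sequenced as 50-bp single reads. The authors trimmed adapters, checked reads with FastQC 0.11.5, mapped reads of at least 18 nt to mm10 with miRDeep2 and miRBase microRNAs, and deposited raw counts per microRNA and precursor. A second deposited table holds normalized counts, a signal equal to the count of the first row times 1 factor per library in 100% of values (within 0.01 reads), for 337 microRNAs. No column of per-sample values was left out.

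A microRNA listed for several precursors was read from its first row. edgeR 4.0.16 (R 4.3.3) fitted age with TMM scaling and a quasi-likelihood F-test, on microRNAs with over 100 reads in at least 50% of libraries (87), or over 1 read (323) for the arms and miR-152-3p, with Benjamini-Hochberg adjustment over all tested. SE is the fold change over the root of F. Ratios were tested by permutation of their means, exact where a group had under 10 libraries. The code was tested on simulated data. Named microRNAs were the members, their opposite arms, offset-seed relatives, blood markers, neighbours in abundance and the 3 most alike by Spearman correlation. Members and lists were chosen with earlier results of these data known. Libraries of 1 age differed by far more than sampling noise. Over 44 pairs with the same replicate number, the mean correlation of deviations was −0.03, and 20 were above 0.1. These correlations ran from −0.86 to 0.83, too wide a range to decide whether replicate numbers pair libraries of the same mouse. DESeq2 1.42.0, limma 3.58.1, a re-implementation of RUVs and other scalings and filters were alternatives.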

Additional observations from a re-analysis of the deposited data

How the results depend on the processing

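Of 359 recomputed values for 37 results, fits leaving out libraries aside, 297 kept their direction and their side of the threshold. The cause of the others was not tested. The age F-test of miR-148a-3p passed with 1 RUVs factor (adjusted p = 9.26e-05), 2 RUVs factors (0.0359), DESeq2 with 1 RUVs factor (2.10e-06), summed rows of the same microRNA (0.0466) and the lowest of the TMM reference libraries (0.0346). That of miR-148b-3p was lost with total counts (0.127), the highest TMM reference (0.114), the 1-read filter (0.0523) and no filter (0.107). That of miR-148a-5p passed with DESeq2 (0.032), 1 and 2 RUVs factors (0.0317 and 0.0456), DESeq2 with 1 RUVs factor (0.0362) and the lowest TMM reference (0.017). Log2 fold changes of miR-148a-3p passed at 13.5 against 12 months with 1 and 2 RUVs factors and with DESeq2 and 1 factor (0.85, 0.43 and 0.90), and at 15 against 13.5 months with 1 factor and DESeq2 with 1 factor (−0.64 and −0.65). At 16.5 against 13.5 months the call was lost with total counts (−1.07), the replicate block (−0.59) and limma on the deposited normalized values (−0.70). At 16.5 against 12 months the sign turned with 2 RUVs factors (0.082). For miR-148b-3p the call at 16.5 against 12 months was lost with total counts (−1.18), the highest TMM reference (−0.63), no filter (−0.83) and limma (−0.75). Its signs turned at 13.5 against 12 months with 1 RUVs factor (0.060) and DESeq2 with 1 factor (0.10), and at 15 against 13.5 months with total counts (−0.17), where 2 RUVs factors passed (0.42). It passed at 16.5 against 13.5 months without the miR-486a-5p and miR-486b-5p rows (−0.58) and with 1 and 2 RUVs factors (−0.61 and −0.41). There it also passed with DESeq2 and 1 factor (−0.64), summed rows (−0.66) and the lowest TMM reference (−0.67). At 16.5 against 15 months it passed with DESeq2 (−0.998), 1 and 2 RUVs factors (−0.84 and −0.83) and DESeq2 with 1 factor (−0.87). miR-148a-5p passed at 16.5 against 13.5 months with DESeq2 (0.59), 1 and 2 RUVs factors (0.52 and 0.52), DESeq2 with 1 factor (0.54) and the highest TMM reference (0.77). For miR-148b-5p at 16.5 against 12 months the sign turned with total counts (−0.17), and 2 RUVs factors passed (0.47).

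Whether replicate numbers pair the libraries could not be decided. The replicate block ended the calls of the miR-148a-3p over miR-148b-3p ratio at 13.5 against 12 (0.65), 16.5 against 12 (0.47), 15 against 13.5 (−0.86) and 16.5 against 15 months (0.55). It also ended that of the miR-148b arm ratio at 16.5 against 15 months (−0.90). It made that of the miR-148a arm ratio at 16.5 against 12 months (−0.63). With the few 15-month pairs no ratio test under the block could have passed. The rank test ended the call of the first ratio at 16.5 against 12 months (0.50), and for the miR-148b arms at 13.5 against 12 months the rank test (0.80) and a pseudocount of 1 read (0.71) passed. Adjusting over the hairpins ended that of the miR-148b arms at 16.5 against 15 months (−0.81).

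Leaving out 1 library at a time moved the adjusted p of the F-test from 0.036 to 0.203 for miR-148a-3p (2 of 37 fits passed, without 13.5 months replicate 1 or 6) and from 0.00592 to 0.175 for miR-148b-3p (22 of 37 passed; it did not pass without replicate 2 or 3 of 12 months, 1, 4 or 6 of 13.5 months, any of the 5 of 15 months, or 4, 5, 6, 7 or 11 of 16.5 months). Log2 fold changes of miR-148a-3p ran from −0.96 to −0.74 at 16.5 against 13.5 months and from −0.42 to 0.054 at 16.5 against 15 months, where the sign turned without 15 months replicate 5. Those of miR-148b-3p ran from −1.0003 to −0.61 at 16.5 against 12 months (21 of 37 passed, the 16 others being without the same libraries or 12 months replicate 7), from −0.081 (without 15 months replicate 5) to 0.52 at 15 against 13.5 months, and from −0.62 to −0.45 at 16.5 against 13.5 months (1 passed, without 12 months replicate 4). At 16.5 against 15 months they ran from −1.04 to −0.46, the latter without 15 months replicate 5. That of miR-148a-5p ran from 0.49 to 0.64 at 16.5 against 13.5 months (6 of 37 passed, without replicate 3, 9, 10 or 12 of 13.5 months, 3 of 15 months or 6 of 16.5 months). The miR-148a-3p over miR-148b-3p ratio ran from 0.42 to 0.58 at 16.5 against 12 months (9 of 20 passed, and not without replicate 2, 3, 4, 5 or 8 of 12 months or 2, 5, 7, 9, 10 or 11 of 16.5 months) and from −0.83 to −0.67 at 15 against 13.5 months. The arm ratio of miR-148a ran from 0.63 to 0.93 at 13.5 against 12 months (2 of 21 passed) and from −0.70 to −0.42 at 16.5 against 12 months (2 of 20 passed), with −1.10 to −0.83 at 15 against 13.5 months (1 of 17 passed, without 13.5 months replicate 7), and that of miR-148b from 0.59 to 0.93 at 13.5 against 12 months (4 of 21 passed). Tests of ratios with miR-152-3p that passed numbered 0 to 2, the latter without 15 months replicate 1. The replicate block changed no other call named here. Depth limits miR-152-3p and both 5p arms most.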
